A study of Mus musculus with 11 samples.

Results

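The complement genes C1qa, C1qb, C1qc, C1ra, C2, C4b, C3, Cfb and Serping1 were followed across 4 groups of mouse bone marrow cells, sorted as stromal, by polyA RNA sequencing. The 9 genes were chosen by gene name, and all 9 were found in each of the 3 deposited tables, out of 16507 genes in the table for age, 14267 in the table for Sca1 and 14910 in the table for the knockout. The series asked what the insulin-like growth factor 1 receptor does in postnatal marrow mesenchymal cells. The adult group held 3 wild-type PDGFRa+CD51+ samples. A further 2 perinatal wild-type samples were labelled PDGFRa+Sca1-, 3 PDGFRa+Sca1+ samples carried a knockout of Igf1r, and 3 PDGFRa+Sca1+ samples were perinatal wild type. The last group was the reference of every comparison, and is called labelled Sca1-positive below, or control beside the knockout. Titles give the knockouts as Cre-positive and the controls as Cre-negative, so an effect of Cre and an effect of the deletion cannot be told apart. The labels call the perinatal cells postnatal, give no age for the knockouts, and name neither the strain, the Cre driver nor whether replicates came from separate mice.

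Complement is a cascade of plasma and tissue proteins that tags and clears microbes, dying cells and immune complexes. The classical arm starts when C1q, built from the chains of C1qa, C1qb and C1qc, binds a target and the proteases C1r and C1s cleave C4 and C2. The alternative arm runs through factor B (Cfb), both arms cleave C3, and C1 inhibitor (Serping1) blocks C1r and C1s. Macrophages are a known main source of C1q, whereas C3, C4, factor B and C1 inhibitor are made by hepatocytes and also by fibroblasts and other stromal cells.

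The 9 genes fall into few places in the genome. In GENCODE M21, on the assembly named mm10, C1qb, C1qc and C1qa lie on the minus strand of chromosome 4 within 18.7 kb, at 136880129 to 136898803. C2 (chromosome 17, 34862604 to 34898265, minus strand) and Cfb (34856374 to 34862518, minus strand) are 86 bases apart, and C4b (34728380 to 34743882, minus strand) is within 170 kb of the far end of C2. C3 is elsewhere on chromosome 17 (57203970 to 57228136, minus strand), C1ra is on chromosome 6 (124512405 to 124523443, plus strand) and Serping1 on chromosome 2 (84765387 to 84775444, minus strand). All 9 are annotated as protein-coding.

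Promoter windows of 250 bases before and 50 after the start were found in the RefSeq table of GRCm38.p6 for 4 of the 9 genes. The windows of C1qb and C1qc are shown because these neighbours changed together with age, and that of C3 because it had the largest difference among the 9 genes between the perinatal groups. They are C1qb at chr4:136886151-136886450, C1qc at chr4:136892865-136893164 and C3 at chr17:57228087-57228386, all on the minus strand and written 5′ to 3′ along it. Capitals mark matches to 1 of 7 motifs searched on both strands.
C1qb: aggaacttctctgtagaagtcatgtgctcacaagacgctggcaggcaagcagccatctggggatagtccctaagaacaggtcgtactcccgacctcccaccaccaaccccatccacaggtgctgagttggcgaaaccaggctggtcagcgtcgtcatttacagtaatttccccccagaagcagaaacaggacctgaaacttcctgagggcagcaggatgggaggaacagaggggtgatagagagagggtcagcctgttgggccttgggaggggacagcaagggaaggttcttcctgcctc
C1qc: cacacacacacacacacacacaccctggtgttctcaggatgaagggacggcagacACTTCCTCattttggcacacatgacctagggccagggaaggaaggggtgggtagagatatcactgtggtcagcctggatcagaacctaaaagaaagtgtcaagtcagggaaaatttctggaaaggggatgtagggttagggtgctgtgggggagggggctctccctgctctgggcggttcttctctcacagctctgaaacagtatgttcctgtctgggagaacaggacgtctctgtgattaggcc
C3: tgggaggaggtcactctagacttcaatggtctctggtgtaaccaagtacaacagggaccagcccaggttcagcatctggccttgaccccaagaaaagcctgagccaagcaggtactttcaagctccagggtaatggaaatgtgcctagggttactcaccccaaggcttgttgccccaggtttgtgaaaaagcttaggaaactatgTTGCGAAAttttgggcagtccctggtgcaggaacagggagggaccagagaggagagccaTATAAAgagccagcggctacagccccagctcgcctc
The C1qc window holds the PU.1 motif GAGGAAGT on its opposite strand, 195 bases before the RefSeq start. This motif is in 3.11% of 32544 promoter windows of this length. GENCODE places the C1qc start at 136893065, inside this window and upstream of the RefSeq start, so the distance depends on the annotation. The C3 window holds a C/EBP match to TTGCNNAA 45 bases before the start, a motif in 10.8% of windows, and the letters TATAAA at base 15 from the start, counting the start as 1, which 13.6% of windows contain and which lie downstream of where a TATA box usually stands. The C1qb window held no match to these motifs, nor to the NF-kB motif (in 5.56% of windows), the ISRE (3.45%), the GAS motif TTCNNNGAA (8.33%) or CCAAT (37.4%). The window of C1ra, not shown, held a C/EBP match (TTATGCAA, on its opposite strand) and a GAS match (TTCCCTGAA), both after the start. A match describes letters in the window and shows no binding.

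Library totals ran from 13412316 to 23782217 counts, and values below are counts scaled to a common library total (CPM) unless named otherwise. A floor of 3 counts corresponded to 0.126 to 0.224 CPM, for counting error only. Labelled Sca1-positive libraries 2 and 3 enter all 3 comparisons, whose results therefore share samples. The age and knockout tables hold different libraries under the number 1: 1.72% of its counts were equal between them, against 99.2% and 98.0% for libraries 2 and 3.

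Several libraries went against their labels. Ly6a, which encodes Sca1, had 666 and 659 CPM in the libraries labelled Sca1-negative, against 13.8 and 10.03 CPM in labelled Sca1-positive libraries 2 and 3. Ly6a had 768, 682 and 930 CPM in the knockouts and 425 CPM in control library 1 of the knockout table. In the adult libraries, sorted as stromal, Pdgfra averaged 13.1 ± 1.07 CPM, against 290 ± 29.7 CPM in the labelled Sca1-positive libraries (TMM-scaled, SD, n = 3 each). The summed level of 16 macrophage markers was 22535 to 25847 CPM in adult libraries and 43.5 to 58.8 CPM in labelled Sca1-positive libraries, where up to 4 of the 16 were at 0 in a library. The summed level of 12 stromal markers was 5114 to 7824 CPM in adult libraries and 75189 to 103953 CPM in labelled Sca1-positive libraries.

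The adult samples were sorted as PDGFRa+CD51+ and the perinatal ones as PDGFRa+Sca1+, so age and sort gate cannot be told apart, and "with age" below stands for both. Between these groups the complement genes moved in opposite directions. The C1q genes were among the most abundant transcripts of the adult libraries and lay near the floor in the labelled Sca1-positive libraries. C1ra, C4b, Cfb and Serping1 were all lower in the adult libraries. Of the 9 genes, 3 were called higher and 4 lower in adults by edgeR's quasi-likelihood test at an adjusted p under 0.05. Of all 13757 genes tested, 37.4% were called higher and 39.7% lower, or 77.1% in either direction, so calls were common in this comparison. The median log2 fold change was -0.04 over the 9 genes and -0.06 over all genes tested.

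C1qa, which encodes the A chain of C1q, had 1555, 1630 and 1583 CPM in the adult libraries, against 0.540, 0.346 and 1.52 CPM in labelled Sca1-positive libraries 1, 2 and 3. C1qb, the B chain gene, had 2126, 2370 and 2126 CPM in adult libraries, against 1.69, 0.404 and 1.45 CPM in labelled Sca1-positive libraries. C1qc, the C chain gene, had 1731, 1780 and 1716 CPM in adult libraries, against 0.944, 0.231 and 1.73 CPM in labelled Sca1-positive libraries. The groups did not overlap for any of the 3 genes, and in each the 3 adult libraries lay close together. In raw counts, labelled Sca1-positive libraries had 4 to 25 of C1qa, C1qb or C1qc each, whereas adult libraries had 21236 to 40234. The log2 fold changes were 10.70 (SE 0.48) for C1qa, 10.62 (SE 0.48) for C1qb and 10.57 (SE 0.56) for C1qc, with edgeR adjusted p of 1.73e-06, 1.68e-06 and 3.24e-06. Without labelled Sca1-positive library 3 they were 11.55 for C1qa, 10.82 for C1qb and 11.31 for C1qc. Without labelled Sca1-positive library 2 they were lower, at 10.31, 10.17 and 10.06. These 3 genes share no run of 50 bases with another gene, so their counts are separable.

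Together the C1q genes took 0.541%, 0.578% and 0.543% of all counts in the adult libraries, against 3.17e-04%, 9.81e-05% and 4.70e-04% in labelled Sca1-positive libraries. They made up 97.1 to 97.8% of the counts of the 9 genes in adult libraries and 0.180 to 0.780% in labelled Sca1-positive libraries. Within C1q, C1qa took 28.2 to 29.2%, C1qb 39.2 to 41.0% and C1qc 30.8 to 32.0% in the adult libraries. The macrophage receptor gene Adgre1, which encodes F4/80, had 910, 1054 and 881 CPM in adults, against 0.135, 0.231 and 0.346 CPM in labelled Sca1-positive libraries. All 16 macrophage markers were called higher in adults, and their part in the C1q result was not tested. In these bulk samples fewer cells of a type and less RNA per cell cannot be told apart.

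C1ra encodes the C1r protease. It had 23.0, 25.7 and 25.0 CPM in adult libraries and 105, 81.6 and 93.3 CPM in labelled Sca1-positive libraries, with a log2 fold change of -2.20 (SE 0.14, edgeR adjusted p 6.52e-06). Every adult library lay below every labelled Sca1-positive library. C2, the protease of the classical C3 convertase, had 19.4, 27.6 and 24.8 CPM in adult libraries, against 21.9, 20.5 and 18.5 CPM in labelled Sca1-positive libraries. The groups overlapped, with a log2 fold change of -0.04 (SE 0.16, edgeR adjusted p 0.839).

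C4b encodes C4, which C1s cleaves. C4b had 5.44, 5.60 and 6.56 CPM in adult libraries and 127, 28.2 and 41.2 CPM in labelled Sca1-positive libraries (log2 fold change -3.75, SE 0.58, edgeR adjusted p 6.17e-04). Labelled Sca1-positive library 1 stood above libraries 2 and 3, yet all 3 lay above the adults. Without library 1 the C4b log2 fold change was -2.82, and against library 1 alone -4.69. Markers of other cell types also set library 1 apart. Cartilage and bone markers summed to 662 CPM in it, against 10718 and 11404 CPM in libraries 2 and 3. Fibroblast progenitor markers, of which the age table holds 8 of 10, summed to 9372 CPM in it, against 3259 and 4078 CPM in libraries 2 and 3. In adults these lists summed to 1460.4 to 1824 CPM and 805 to 981 CPM. C4b, C3, Cfb, Serping1, C1ra and C2 were all highest in library 1 of the labelled Sca1-positive group. The part of these markers in their values was not tested. C3, the protein on which the arms meet, had 31.4, 36.1 and 33.1 CPM in adult libraries, against 24.1, 1.79 and 2.07 CPM in labelled Sca1-positive libraries. All adult libraries were above, but the log2 fold change of 1.59 (SE 0.88) had an edgeR adjusted p of 0.135. Without labelled Sca1-positive library 1 it was 3.86 (edgeR adjusted p 4.43e-07), and against library 1 alone it was 0.23.

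Cfb, the alternative-arm protease gene, was low in adults, with 0.347, 0.766 and 0.895 CPM, against 49.6, 26.9 and 32.8 CPM in labelled Sca1-positive libraries. The log2 fold change was -6.05 (SE 0.39, edgeR adjusted p 6.99e-06), the largest fall among the 9 genes. Serping1 had 39.6, 68.2 and 72.2 CPM in adult libraries and 641, 384 and 410 CPM in labelled Sca1-positive libraries (log2 fold change -3.27, SE 0.31, edgeR adjusted p 4.43e-05). Neither gene overlapped between the groups. In all, the adult libraries lay above for 4 genes and below for 4, against 45.3% and 35.7% of all genes tested, and C2 alone overlapped.

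**Figure D1:**
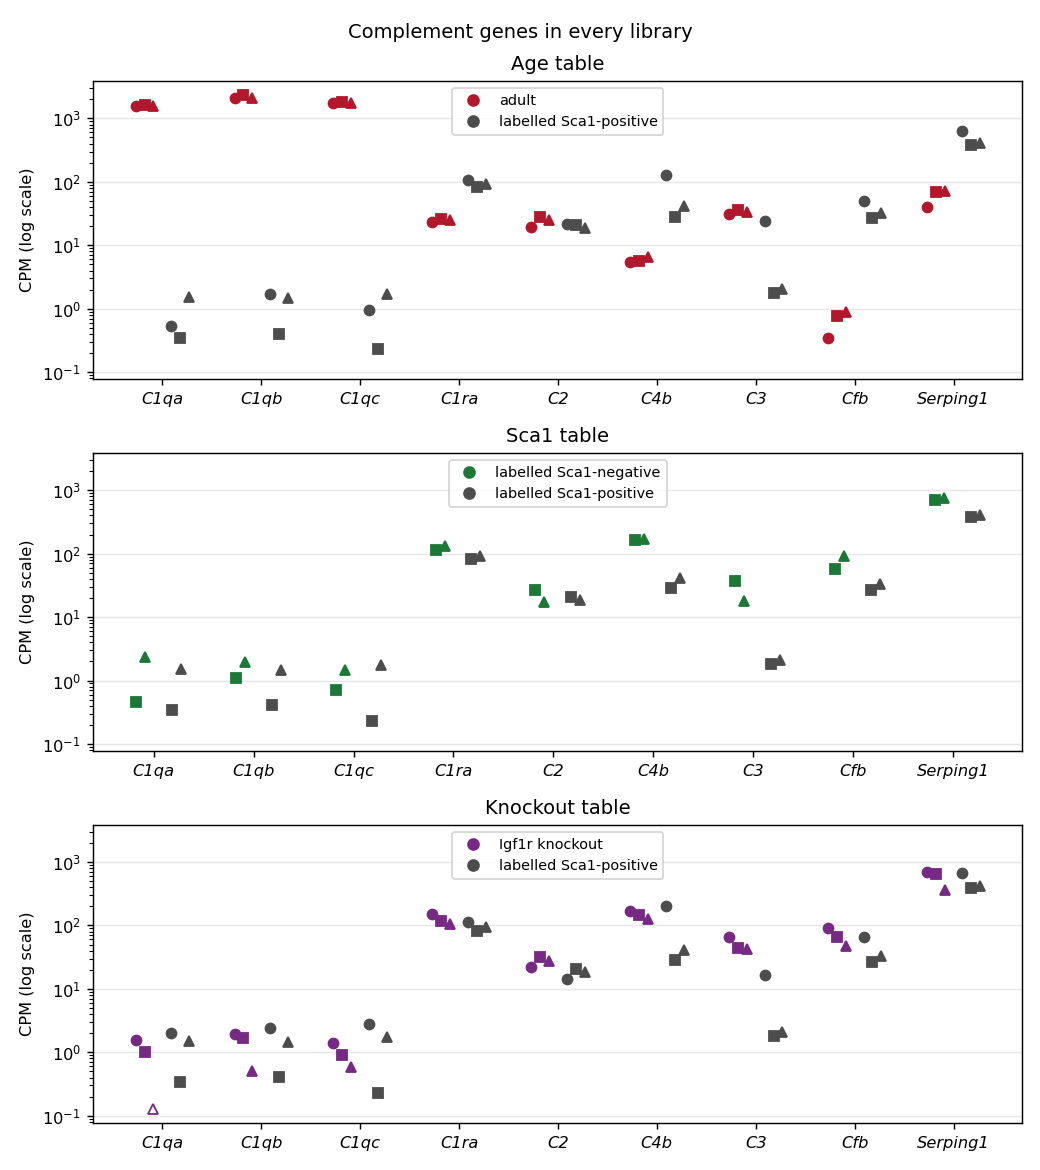
Level of the 9 genes in each library (y axis, CPM on a log scale), in 3 panels by deposited table; circles, squares and triangles are libraries 1, 2 and 3, and the open triangle is a count of 0 drawn at the floor of 0.126 CPM. The C1q genes sit at 1555 to 2370 CPM in adults and near or below 1.73 CPM in the labelled Sca1-positive libraries of the age table.

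Length-scaled levels (TPM), which the authors deposited, allow the genes to be ordered within a group. In adults C1qb averaged 3658 ± 50.6 TPM, C1qa 2786 ± 84.9 TPM and C1qc 2436 ± 87.8 TPM (SD, n = 3), at ranks 20, 29 and 39 of 16507 genes. Serping1 followed in adults at 60.8 ± 18.01 TPM, and C2 (15.1 ± 2.04 TPM) and C1ra (14.3 ± 0.771 TPM) did not differ beyond their spread. C3 (11.3 ± 1.45 TPM), C4b (2.03 ± 0.448 TPM) and Cfb (0.725 ± 0.393 TPM) came last in adults. In labelled Sca1-positive libraries of the same table, Serping1 led with 396 ± 73.8 TPM (SD, n = 3). C1ra (44.1 ± 3.68 TPM), C4b (43.7 ± 45.1 TPM) and Cfb (29.9 ± 20.9 TPM) then followed in labelled Sca1-positive libraries, with spreads that overlapped. C2 was at 13.5 ± 2.05 TPM there, and C3, C1qb, C1qa and C1qc lay between 1.39 and 2.27 TPM without separating.

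Between the perinatal groups, 4 of the 9 genes were called higher where the label was Sca1-negative, and none was called lower, nor at an unadjusted p under 0.05 or by DESeq2 (0 each). They were C3, C4b, Cfb and Serping1, the genes of the central, classical and alternative steps and of C1 inhibitor. By edgeR's quasi-likelihood test 1.63% of the 13529 genes tested were called higher and 2.79% lower, or 4.41% in either direction. The median log2 fold change was 0.77 over the 9 genes and 0.01 over all genes tested. The value of 0.77 is that of C1qb, whose counts were low and whose groups overlapped (edgeR adjusted p 0.612). The labels and Ly6a disagree here, so the direction follows the labels only.

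C3 had 37.3 and 18.2 CPM in the libraries labelled Sca1-negative, against 1.79 and 2.08 CPM in the labelled Sca1-positive libraries. The log2 fold change was 3.89 (SE 0.43, edgeR adjusted p 0.00744), the largest of the 9, and 3.25 without library 2 labelled Sca1-negative. C4b had 164 and 169 CPM in libraries labelled Sca1-negative, against 28.2 and 41.2 CPM in labelled Sca1-positive libraries (log2 fold change 2.29, SE 0.25, edgeR adjusted p 0.00726). Both genes were apart in all 4 libraries, and C3 differed more than C4b between the libraries labelled Sca1-negative.

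Cfb had 57.6 and 91.9 CPM in libraries labelled Sca1-negative and 26.9 and 32.8 CPM in labelled Sca1-positive libraries (log2 fold change 1.35, SE 0.26, edgeR adjusted p 0.0422). Serping1 had 697 and 761 CPM in libraries labelled Sca1-negative and 384 and 411 CPM in labelled Sca1-positive libraries (log2 fold change 0.91, SE 0.18, edgeR adjusted p 0.0489). Both calls lay near the threshold. Without labelled Sca1-positive library 2 the edgeR adjusted p was 0.128 for Cfb (log2 fold change 1.19) and 0.620 for Serping1 (0.84). The Serping1 call was also lost without labelled Sca1-positive library 3 (edgeR adjusted p 0.437), with upper quartile scaling (0.0526) and with no filter on low counts (0.0504), at log2 fold changes of 0.97, 0.87 and 0.91.

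C1ra had 116 and 134 CPM in libraries labelled Sca1-negative, against 81.6 and 93.3 CPM in labelled Sca1-positive libraries (log2 fold change 0.54, SE 0.19, edgeR adjusted p 0.185). It did not overlap. The C1ra log2 fold change was 0.62 without library 2 labelled Sca1-negative and 0.47 without library 3. It was 0.43 without labelled Sca1-positive library 2 and 0.66 without labelled Sca1-positive library 3. C2 overlapped, with 26.3 and 17.0 CPM in libraries labelled Sca1-negative, against 20.6 and 18.5 CPM in labelled Sca1-positive libraries (edgeR adjusted p 0.760). The C2 log2 fold change was 0.49 without library 3 labelled Sca1-negative and had the opposite sign without library 2 (-0.19).

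The C1q genes stayed at low counts in every one of these libraries. C1qa had 7 and 32 counts in libraries labelled Sca1-negative and 6 and 22 in labelled Sca1-positive libraries, C1qb 17 and 27 against 7 and 21, and C1qc 11 and 20 against 4 and 25. All overlapped, with edgeR adjusted p of 0.612 to 0.934. The 5 non-overlapping genes were all above, beside 22.2% of all genes tested that lay above and 27.6% that lay below.

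Other marker genes moved with the same split. The summed level of 10 fibroblast progenitor markers was 10846 to 12271 CPM in libraries labelled Sca1-negative and 3286 to 4100 CPM in labelled Sca1-positive libraries, and 7 of 10 were called higher. The summed level of 10 cartilage and bone markers was 407 to 443 CPM in libraries labelled Sca1-negative and 10721 to 11408 CPM in labelled Sca1-positive libraries, and all 10 were called lower. No gene of either list was at 0 in these libraries. The 10 macrophage markers of this table summed to 38.7 to 53.7 CPM in libraries labelled Sca1-negative and 52.1 to 58.0 CPM in labelled Sca1-positive libraries. The part of these cell types in the complement result was not tested.

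**Figure D2:**
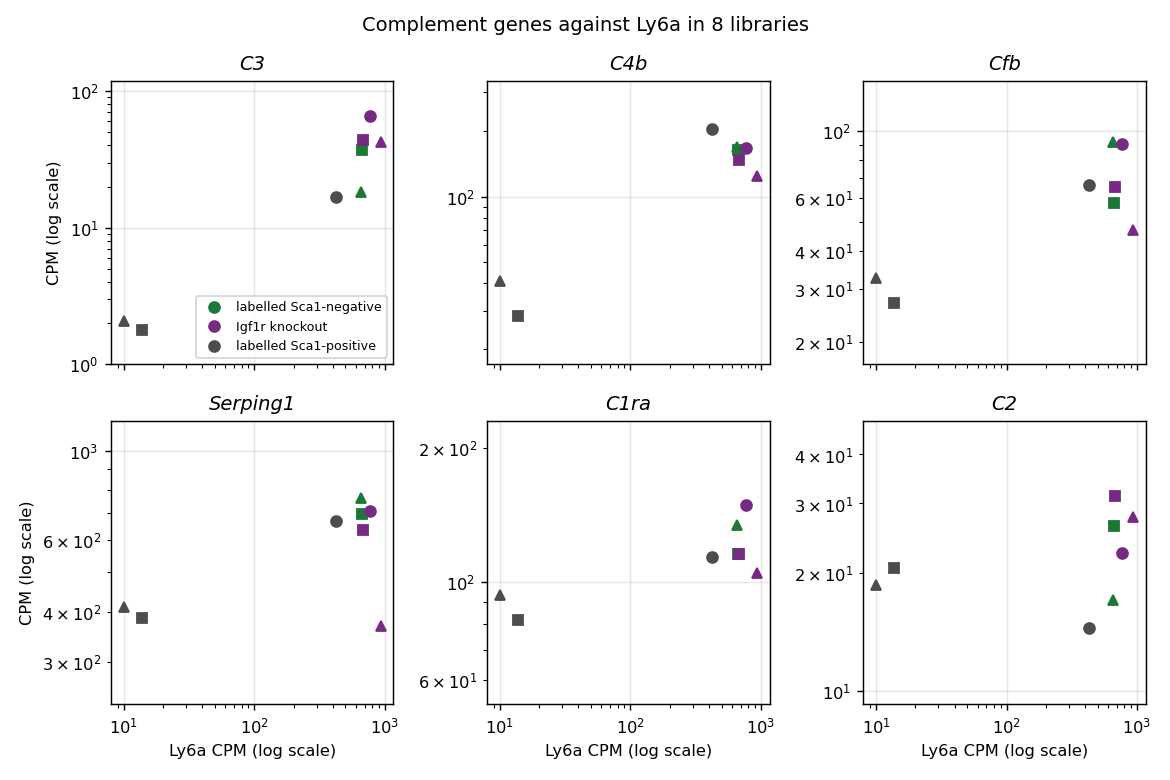
Level of 6 complement genes (y axes) against that of Ly6a (x axis), both in CPM on log scales, in 8 libraries; circles, squares and triangles are libraries 1, 2 and 3 of a group. Labelled Sca1-positive libraries 2 and 3 lie at 13.8 and 10.03 CPM of Ly6a and hold the lowest C3, C4b, Cfb and C1ra; control library 1 lies at 425 CPM of Ly6a.

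In the knockout, the targeted gene was checked first. Igf1r had 182, 80 and 77 counts in the knockouts, against 599, 548 and 444 counts in the controls. Every knockout lay below every control, but the log2 fold change of -2.55 (SE 0.34) had an edgeR adjusted p of 0.0816. Of 13590 genes tested, edgeR called 0 (0%) higher and 5 (0.0368%) lower, against 1647 higher and 1316 lower at an unadjusted p under 0.05 and 474 higher and 493 lower by DESeq2. None of the 9 complement genes was called by edgeR; at an unadjusted p under 0.05, 2 of 9 were higher, beside 12.1% of genes, and 0 lower. DESeq2 run here called 1 of the 9, C3, with an adjusted p of 0.00607, whereas the authors' deposited table gives C3 a log2 fold change of 2.82 with an adjusted p of 0.0730. With the replicate number as a block, edgeR called 0 genes lower and none of the 9.

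C3 had 66.1, 44.1 and 42.6 CPM in the knockouts, against 16.8, 1.79 and 2.08 CPM in controls 1, 2 and 3. All knockouts were above all controls, and control 1 stood between (log2 fold change 2.83, SE 0.84, edgeR adjusted p 0.177). Without control 1 the log2 fold change was 4.78 (edgeR adjusted p 0.00754), and against control 1 alone it was 1.53 (edgeR adjusted p 0.586). C2 had 22.4, 31.3 and 27.7 CPM in the knockouts and 14.4, 20.6 and 18.6 CPM in the controls (log2 fold change 0.65, SE 0.25, edgeR adjusted p 0.200). C2 also did not overlap, and passed the test without knockout library 1 (0.81, edgeR adjusted p 0.0398). C2 and C3 were the 2 genes of the 9 whose knockout values all lay above, beside 15.4% of all genes tested, and 0 lay below, beside 12.6%.

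C4b had 167, 147 and 124 CPM in the knockouts, against 204, 28.2 and 41.2 CPM in controls 1, 2 and 3. The highest value was control 1, so the groups overlapped (log2 fold change 0.65, SE 0.69, edgeR adjusted p 0.560). Without control 1 the log2 fold change was 2.15 (edgeR adjusted p 0.0216), and against control 1 alone it was -0.55. Cfb had 90.5, 65.2 and 46.9 CPM in the knockouts and 66.5, 26.9 and 32.7 CPM in controls 1, 2 and 3, with a log2 fold change of 0.67 (SE 0.41, edgeR adjusted p 0.326) that was -0.059 against control 1 alone. Serping1 had 707, 638 and 367 CPM in the knockouts and 668, 385 and 411 CPM in the controls, with a log2 fold change of 0.22 (SE 0.34, edgeR adjusted p 0.687) that was -0.31 against control 1 alone. Control 1 was the highest of the controls for all 3 genes.

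C1ra overlapped, with 149, 115 and 104 CPM in the knockouts and 114, 81.7 and 93.4 CPM in the controls (edgeR adjusted p 0.371). C1qa had 35, 19 and 0 counts in the knockouts and 41, 6 and 22 in the controls. Its count of 0 allows up to 3 counts, or 0.126 CPM, in that library. C1qb had 43, 32 and 12 counts in the knockouts against 49, 7 and 21 in the controls, and C1qc 31, 17 and 14 against 56, 4 and 25. All C1q genes overlapped, with edgeR adjusted p of 0.560 to 0.943. Cell type markers differed among the controls: the cartilage and bone markers summed to 330 to 622 CPM in the knockouts and 461 to 11414 CPM in the controls, and the fibroblast progenitor markers to 10739 to 11313 CPM in the knockouts and 3288 to 10861 CPM in the controls. Their part in the result was not tested.

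**Figure D3:**
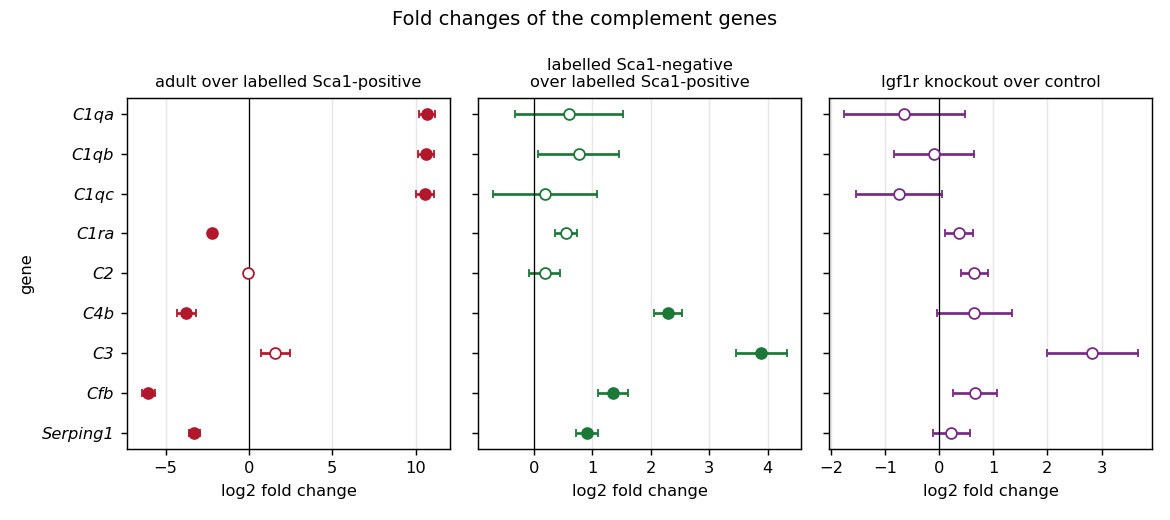
Log2 fold change with its SE (x axis) of the 9 genes (y axis) in the 3 comparisons; filled points passed edgeR's test at an adjusted p under 0.05. The C1q genes stand near 10.6 with age, C3 is the highest point between the perinatal groups (3.89), and no point is filled for the knockout.

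The rest of the pathway was followed in 50 further complement genes, of which 24 could be tested with age, 11 higher and 8 lower in adults, and their median log2 fold change was 0.26. Of all genes tested 37.4% were higher and 39.7% lower, so these shares lie near those of all genes. Among receptors, 7 of 9 were higher. C3ar1, the receptor for the C3a fragment, had 726, 821 and 726 CPM in adults and 0.0674, 0.115 and 0.346 CPM in labelled Sca1-positive libraries (log2 fold change 11.77, edgeR adjusted p 5.02e-07). Itgam, the alpha chain of complement receptor 3, had a log2 fold change of 11.12, its partner Itgb2 one of 9.65, and Cd93 one of 5.31. Cfp, which encodes the convertase stabiliser properdin, had 301, 278 and 254 CPM in adults and 0.742, 1.56 and 2.35 CPM in labelled Sca1-positive libraries (log2 fold change 7.21). These receptors and Cfp lay far above their labelled Sca1-positive levels in every adult library.

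Genes of the proteases and soluble regulators were mixed. C1s1, the partner of C1ra, had 17.1, 24.4 and 22.2 CPM in adults and 154, 136 and 138 CPM in labelled Sca1-positive libraries (log2 fold change -3.02). The log2 fold change was 3.78 for Masp1, a lectin-pathway protease, and -0.97 for C1rl. Clu, the terminal-pathway inhibitor clusterin, had 0.810, 0.825 and 0.671 CPM in adults and 107, 199 and 231 CPM in labelled Sca1-positive libraries (log2 fold change -8.11). Vtn (vitronectin), listed at 0 in each adult library, was at least 110-fold lower in adults, against a floor of 3 counts per library. The membrane regulators Cd55 (-6.24) and Cr1l (-0.91) were lower, and among recognition genes Fcna was higher (3.36) and Colec12 (-1.46) and Ptx3 (-1.79) lower. Csmd1 was higher (3.36), and C8g of the terminal pathway did not pass (log2 fold change -1.19, edgeR adjusted p 0.0582). All of the calls in these sentences had an edgeR adjusted p under the threshold.

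Between the perinatal groups, 22 further genes were tested, 2 higher and 2 lower (beside 1.63% and 2.79% of all genes), with a median log2 fold change of -0.059. Ptx3, a soluble recognition protein, had 507 and 469 CPM in libraries labelled Sca1-negative and 120 and 146 CPM in labelled Sca1-positive libraries (log2 fold change 1.91, edgeR adjusted p 0.00726). Cd55, which speeds decay of convertases on the cell surface, was higher (2.28, edgeR adjusted p 0.00326), whereas Clu (-1.19, edgeR adjusted p 0.0223) and Vtn (-1.61, edgeR adjusted p 0.03002) were lower. Clu and Vtn, soluble regulators, were thus lower in the comparison in which C3, C4b and Cfb were higher. Serping1, also a soluble regulator, went the other way (0.91, edgeR adjusted p 0.0489), so soluble regulators did not move together. C1s1 (0.40), Cfp (-0.19), C8g (-1.01) and the receptor gene Calr (0.08) did not pass the test.

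In the knockout 22 further genes were tested and 0 passed edgeR's test, with a median log2 fold change of -0.13. At an unadjusted p under 0.05, 3 of the 22 were higher and 4 lower, beside 12.1% and 9.68% of all 13590 genes tested. DESeq2 called 1 of the 22 higher and 2 lower, beside 474 and 493 over all genes. Ptx3 had a log2 fold change of 1.71 (edgeR adjusted p 0.184), Clu one of -1.81 (edgeR adjusted p 0.176) and Cd55 one of 1.17 (edgeR adjusted p 0.270). C1s1 (0.54), Cfp (-0.89), C8g (-0.55) and Calr (-0.16) did not pass either.

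**Figure D4:**
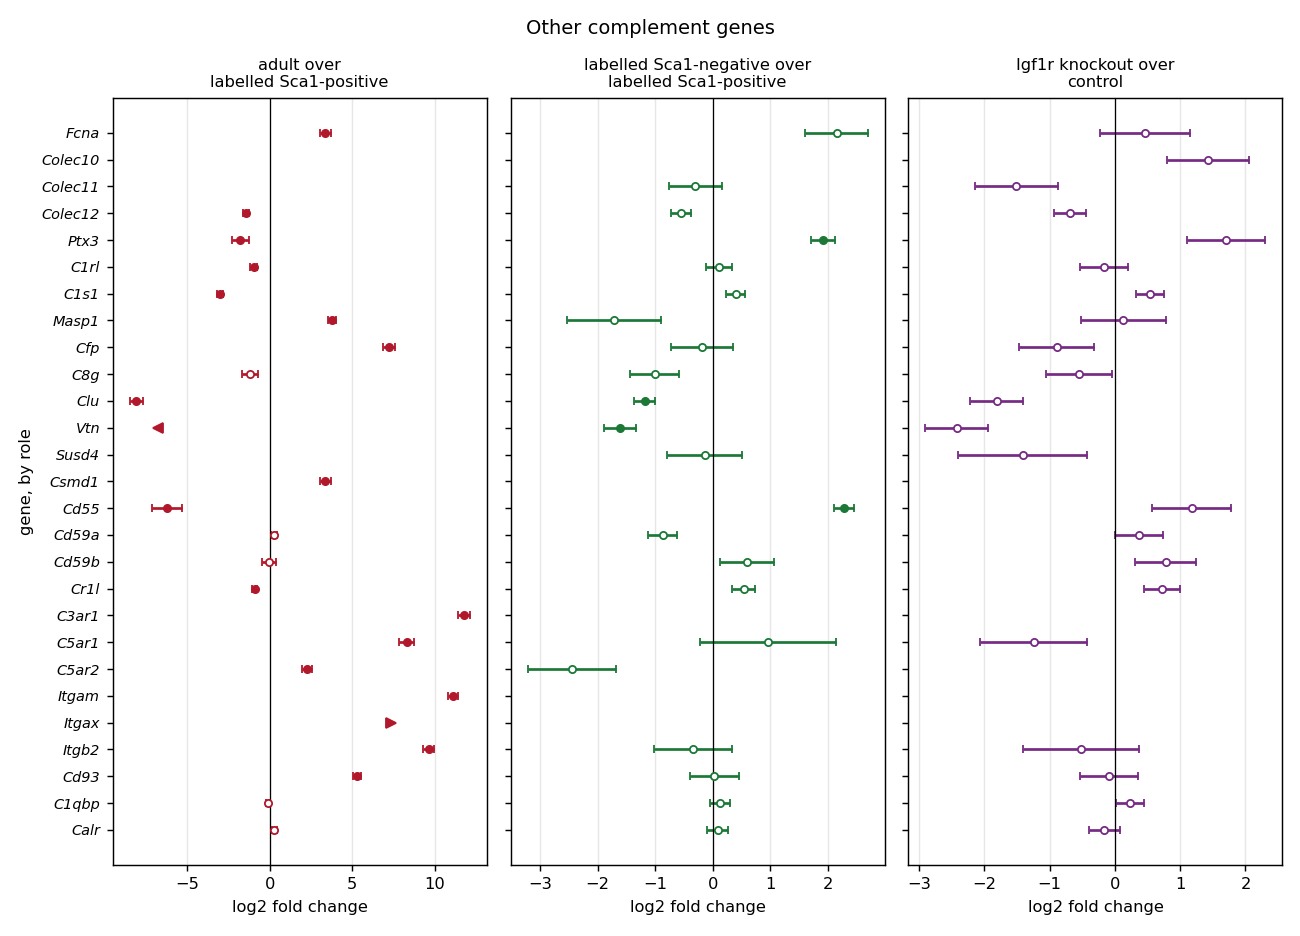
Log2 fold change with its SE (x axis) of 27 other complement genes (y axis, ordered by role) in the 3 comparisons; filled points passed edgeR's test, and triangles are lower bounds on the size of the change where a group was at 0. With age, 7 of 9 receptors were called higher and stand at the right. Cd55 (2.28) and Ptx3 (1.91) are the filled points on the right between the perinatal groups, and no point is filled for the knockout.

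Counts of 4 of the 9 genes may include reads of close copies or overlapping genes, because the sources used here do not give the counting rule or the use of strand. Of runs of 50 bases, 50.8% in C1ra are shared with another gene (48.0% with C1rb), 35.2% in C4b with C4a, and 81.4% in Cfb and 58.0% in C2 with the overlapping gene Gm20547. Gm20547 itself had 0 to 81 counts per library. C2 also overlaps the protein-coding gene Zbtb12, which lies on the opposite strand, over 17385 bases. C1rb and C4a were not analysed here. C3 and Serping1, like the C1q genes, share no such run.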

How the data were processed

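The authors deposited 3 tables, each with raw counts per gene. Per the submitters' processing notes, reads were trimmed with Trimmomatic 0.32, the build was mm10 and DESeq2 was used; the sources used here do not give the aligner, counter, annotation or strand. The authors deposited TPM in the age and Sca1 tables, per the file headers. Columns of the knockout table headed TPM held values on a log2 scale, as deposited, and entered no test; the tables also hold the authors' log2 fold changes and adjusted p-values, per the file headers.

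Each table was fitted by itself with edgeR 4.0.16 in R 4.3.3 (filterByExpr, TMM scaling, robust quasi-likelihood test), with Benjamini-Hochberg adjustment over all genes tested and calls under 0.05. The test was checked on simulated counts that gave every gene the same spread. The check therefore does not cover differences between libraries of a group like those seen among the controls. DESeq2 1.42.0, other scalings, no filter, a replicate block and leaving out each library were alternatives. Libraries are not stated to come from separate animals, so p-values measure only the sample-to-sample spread, which may be technical.

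The printed knockout values come from the fit without a block; the block by title number was an alternative. Deviations of same-numbered knockout and control libraries correlated at 0.33, 0.14 and 0.13, but knockout 3 correlated at 0.39 with control 2, and the deposited column of control 1 carries the number 5. With age the correlations were -0.07, -0.03 and 0.33, so the numbers did not pair them.

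The genes and lists were chosen with earlier results of these data known. Other complement genes were named by role: up to 4 called genes with the smallest adjusted p, or else the most abundant. Promoter windows are from RefSeq. 1 listed gene is not reported here.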

Additional observations from a re-analysis of the deposited data

How the results depend on the processing

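With age, 3 of the 9 genes were higher and 4 lower under the alternatives run, except that C3 made 4 higher without labelled Sca1-positive library 1 and with the replicate block (2.52, edgeR adjusted p 0.0265). The C2 log2 fold change turned positive with library totals only (0.23), which moved the median of all genes by 0.27, and with no filter (0.021), and ran from -0.098 to 0.13 when libraries were left out. Upper quartile scaling moved that median by -0.13.

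Between the perinatal groups, genes called higher numbered 220, against 428 with DESeq2, 577 with the replicate block and 143 to 2268 when a library was left out; genes called lower numbered 377, against 598, 792 and 317 to 2567. Of the 9 genes, 2 to 6 were higher with a library left out. The log2 fold changes then ran from -0.91 to 2.003 (C1qa), -0.68 to 2.23 (C1qc) and -0.19 to 0.49 (C2). Only 2 pairs share numbers here, with a correlation of deviations of 0.46. With 2 libraries per group the other matching must give -0.46. Only the sign is free, so the value cannot decide whether the numbers pair the libraries.

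For the knockout, DESeq2 called 474 genes higher and 493 lower, and 1 of the 9. With a library left out, 0 to 1532 were called higher, 0 to 1471 lower and 0 to 2 of the 9 higher. With the replicate block or control 1 only, 0 were called lower. C1qb turned positive with the block (0.013) and ran from -0.54 to 0.62, and C1qc from -1.26 to 0.036, when libraries were left out; C4b (-0.55), Cfb (-0.059) and Serping1 (-0.31) turned negative against control 1 only. The cause of these changes was not tested. For the age comparison, the fit against library 1 alone was chosen after seeing the data. Where a group was left with 1 library, it was assumed to vary like the others. Low counts limit the C1q genes in perinatal libraries.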

Other observations

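The log2 columns headed TPM in the authors' deposited table for the knockout gave other differences than log2 CPM for some genes. For C4b the mean of the knockouts minus that of the controls was 2.74 in the deposited columns and 1.23 in log2 CPM. For Cfb it was 1.94 and 0.75, and for C3 2.99 and 3.65. In knockout library 1 C4b had a deposited value of 6.95 beside 167 CPM, whereas in control library 1 it had 5.38 beside 204 CPM. In the age table the ratio of deposited TPM to CPM of 1 gene also varied between libraries, with a highest-to-lowest ratio of 2.73 for C4b, 2.28 for C3 and 2.26 for Cfb, against 1.10 to 1.18 for the C1q genes.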
